A study of Homo sapiens with 12 samples.

Results

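The genes described here are the α-like globins and the α-hemoglobin stabilizing protein AHSP. They were chosen by gene name, as HBZ, HBZP1, HBM, HBA2, HBA1, HBQ1 and AHSP, which are 7 of the 58735 genes of the count table. RNA was sequenced from K562, a single human leukemia line with a BCR-ABL1 fusion kinase, which makes some hemoglobin when hemin is added. The study crossed hemin with nilotinib, an inhibitor of that kinase, and asked how each treatment moves erythroid genes. The 4 groups held 3 biological replicates each. Mock DMSO cells received neither agent, mock nilotinib cells received 0.1 μM nilotinib, hemin DMSO cells received 50 μM hemin for 24 h, and hemin nilotinib cells received 0.1 μM nilotinib followed by 50 μM hemin for 24 h.

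Hemoglobin is a tetramer of α-like and β-like chains around heme. The α-like genes stand in the order in which they are used in development, with HBZ, the ζ chain of the embryo, first and the fetal and adult HBA2 and HBA1 after it, and a distal enhancer inside the neighboring gene NPRL3 drives them in erythroid cells. AHSP binds free α-globin and keeps it soluble until it meets a β-like chain. HBZP1 is an unprocessed pseudogene of HBZ, and HBM and HBQ1 encode the μ and θ chains, which are little used in normal hemoglobin.

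The cluster members lie on the plus strand of chromosome 16 in GRCh38. HBZ (ENSG00000130656) runs from 152687 to 154503, HBM (ENSG00000206177) from 153892 to 166768 and HBZP1 (ENSG00000206178) from 163122 to 165156. They are followed by HBA2 (ENSG00000188536) from 172876 to 173710, HBA1 (ENSG00000206172) from 176680 to 177522 and HBQ1 (ENSG00000086506) from 180453 to 181181. AHSP (ENSG00000169877) is on the same chromosome but far away, from 31527864 to 31528803.

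Reads are not equally easy to assign to these genes, as the last 60 coding bases before the stop codon show. They are printed 5′ to 3′ from the GENCODE 29 transcripts, with capitals at the bases that differ from HBA2 at the same place.
HBA2: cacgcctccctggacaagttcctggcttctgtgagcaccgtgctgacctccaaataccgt
HBA1: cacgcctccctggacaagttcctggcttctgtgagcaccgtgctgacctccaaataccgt
HBZ: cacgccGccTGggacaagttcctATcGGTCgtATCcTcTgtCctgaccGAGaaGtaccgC
HBQ1: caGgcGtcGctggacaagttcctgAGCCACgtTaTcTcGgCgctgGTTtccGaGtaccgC
HBM: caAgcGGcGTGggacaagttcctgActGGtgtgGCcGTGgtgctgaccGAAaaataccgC
These stretches are exonic and lie at chr16:173538-173597 for HBA2, chr16:177349-177408 for HBA1, chr16:154338-154397 for HBZ, chr16:181046-181105 for HBQ1 and chr16:166646-166705 for HBM. HBA1 and HBA2 differ at 0 of the 60 bases, and over all 426 coding bases their identity is 100%. HBZ and HBQ1 each differ from them at 20 bases and HBM at 18. Over the whole coding sequence HBZ is 69.6% identical to HBA2 and HBQ1 is 73.5%.

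Of the 150-base words in the transcripts, 78.3% for HBA2 and 78.5% for HBA1 occur in the other gene of the pair, so the split of their reads depends on how the sequencing service counted. Their sum is given beside each of them. HBM and HBZ share 205 exonic bases on the same strand, as do HBM and HBZP1. This is 27.2% of the exonic bases of HBZ, 44.8% of HBM over both partners and 47.8% of HBZP1. Reads in those bases cannot be assigned to a single gene, and 74.3% of the 150-base words of HBZP1 also occur in HBZ or HBM. HBQ1 and AHSP share no exonic base and no such word with another gene.

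RefSeq's promoter table for GRCh38.p14 held 1 of the 7 genes, HBM, whose start it places inside the longer GENCODE gene. No other promoter of the 7 could therefore be shown. The last 100 bases before the start of HBM, chr16:165878-165977 on the plus strand, are printed with motifs in capitals. They are GATAA, the core that GATA factors bind, then the box CACCC, which is on the minus strand and so printed as its reverse complement, then TATAA, the form of a TATA box.
HBM promoter: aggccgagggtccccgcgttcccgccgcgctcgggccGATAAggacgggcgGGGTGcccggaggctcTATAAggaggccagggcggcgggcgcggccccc
In the 250 bases searched on both strands, GATAA occurred 1 time, 63 to 59 bases before the start. The box CACCC occurred 1 time at 49 to 45 bases and TATAA 1 time at 33 to 29 bases, and none overlapped another. CCAAT occurred 0 times. Of all 35116 promoters of the same length, 20.4% held GATAA, 54.7% CACCC, 18.9% TATAA and 32.0% CCAAT.

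Total counts ranged from 33457078 to 50506990 per library. Levels are given as CPM, the depth-scaled count, with library totals corrected by TMM factors, and 3 counts, the limit that a count of 0 allows, correspond to 0.054 to 0.0957 CPM. This limit covers counting error only. The labelled cell line was compared with marker lists. All 8 erythroid markers were detected in every group, and their summed level was 1081 to 1779 CPM in mock DMSO, 871 to 1346 in hemin DMSO, 8749 to 10432 in mock nilotinib and 7819 to 10047 in hemin nilotinib. The myeloid list of 11 genes summed to 163 to 184, 106 to 129, 37.4 to 44.5 and 15.5 to 33.5 CPM in the same order of groups. The 10 megakaryocyte markers summed to 40.1 to 66.0, 34.8 to 75.1, 26.7 to 37.2 and 15.4 to 25.1 CPM, and the 6 lymphoid markers to 9.21 to 19.8, 19.1 to 27.1, 2.68 to 2.79 and 2.01 to 6.71 CPM. Among the defining markers, GP1BB had 0 counts in every library, although 100% of its exonic bases overlap another gene on its strand. MPO had too few counts for the test, with at most 5 in a mock DMSO library, 9 in hemin DMSO, 1 in mock nilotinib and 0 in hemin nilotinib.

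**Figure D1:**
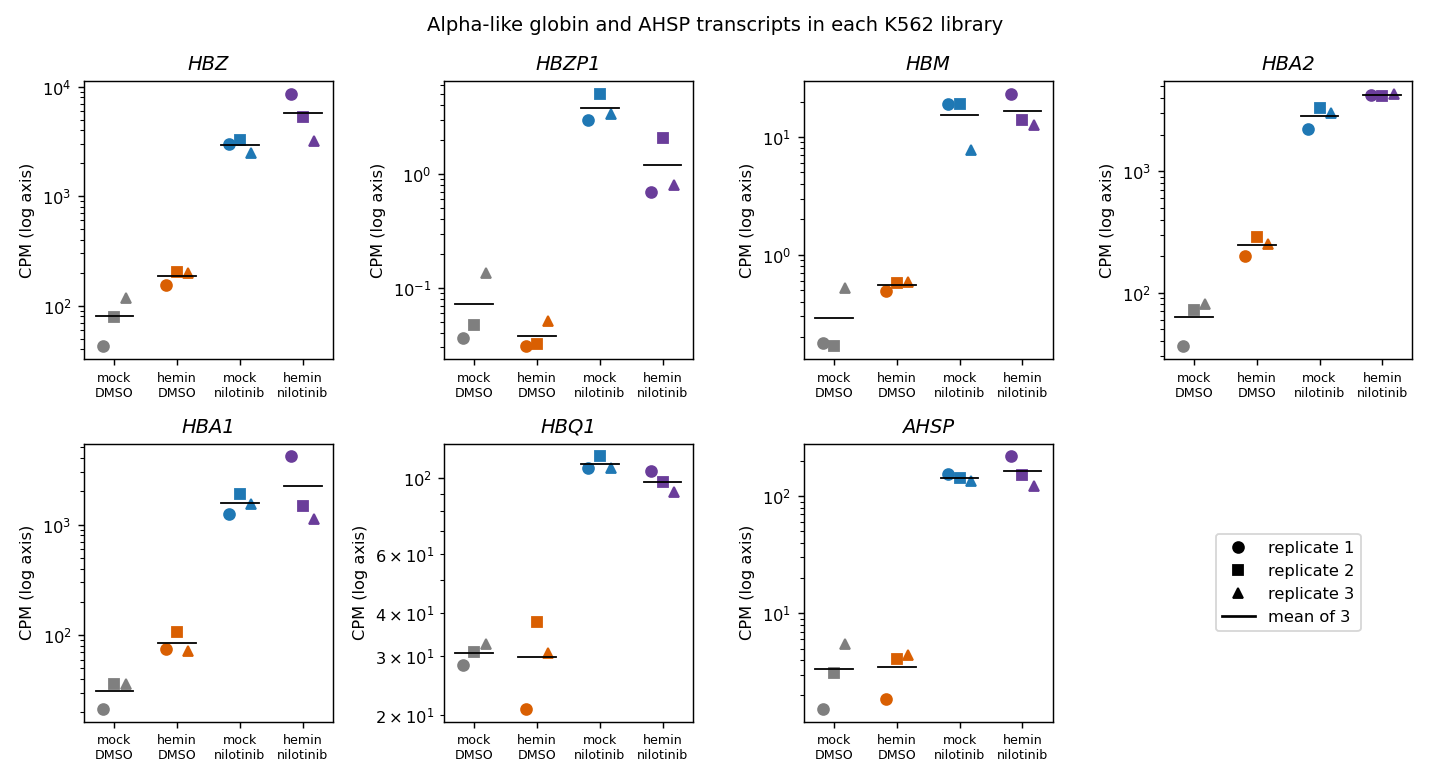
Level of each gene in CPM (log axes with a separate range per gene) in the 12 libraries, by group on the x axis, with symbols for the replicate number and a line at the mean of 3. Each gene is higher in all 6 libraries with nilotinib than in all 6 without it, and HBA1 is spread over 1132 to 4133 CPM in hemin nilotinib.

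HBZ was measured at 42.4, 78.9 and 118 CPM in mock DMSO replicates 1, 2 and 3, and at 154, 203 and 199 CPM in hemin DMSO. With nilotinib it stood at 2972, 3273 and 2493 CPM without hemin and at 8630.2, 5236 and 3215 CPM with hemin. All 3 hemin DMSO libraries were above all 3 mock DMSO libraries, and every library with nilotinib was far above both. The hemin nilotinib libraries were the most spread, and the lowest of them, replicate 3, lay within the range of mock nilotinib.

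The pseudogene HBZP1 had 2, 2 and 7 counts in mock DMSO and 1, 1 and 2 counts in hemin DMSO, at or near the limit of 3 counts. It had 118, 174 and 117 counts in mock nilotinib and 24, 76 and 34 in hemin nilotinib. Its groups with nilotinib did not overlap those without it, and, like HBQ1, it was lower in all 3 hemin nilotinib libraries than in all 3 mock nilotinib libraries.

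HBM stayed low in all groups. It was 0.18, 0.167 and 0.519 CPM in mock DMSO, 0.490, 0.574 and 0.583 CPM in hemin DMSO, 18.9, 19.1 and 7.76 CPM in mock nilotinib and 23.3, 13.9 and 12.6 CPM in hemin nilotinib. Mock nilotinib replicate 3 was the lowest of the 6 libraries with nilotinib and still above all those without it.

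HBA2 stood at 36.1, 72.1 and 81.4 CPM in mock DMSO, and at 200.0, 289 and 253 CPM in hemin DMSO. It reached 2221, 3301 and 3015 CPM in mock nilotinib and 4209.7, 4176 and 4354 CPM in hemin nilotinib. It was the only member for which no 2 of the 4 groups overlapped, in the order mock DMSO, hemin DMSO, mock nilotinib and hemin nilotinib. Its hemin nilotinib libraries were the tightest group relative to the mean, at 4246 ± 94.4 CPM (SD, n = 3).

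HBA1 was 21.4, 35.8 and 36.3 CPM in mock DMSO, 75.3, 106 and 72.3 CPM in hemin DMSO and 1249, 1869 and 1539.6 CPM in mock nilotinib. In hemin nilotinib it was 4133 CPM in replicate 1 and 1465 and 1132 CPM in the others, of which the last lay below all mock nilotinib libraries. Of the counts of HBA1 and HBA2 together, HBA1 held 49.5% in that replicate 1, 26.0% in replicate 2 and 20.6% in replicate 3. The same share was 30.9 to 37.2% in mock DMSO, 33.8 to 36.1% in mock nilotinib and 22.2 to 27.4% in hemin DMSO.

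HBQ1 had the narrowest range. It was 28.1, 30.7 and 32.5 CPM in mock DMSO, 20.9, 37.6 and 30.5 CPM in hemin DMSO, 107, 116 and 107 CPM in mock nilotinib and 105, 97.3 and 90.8 CPM in hemin nilotinib. The groups without nilotinib overlapped each other, while hemin nilotinib lay just under mock nilotinib.

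AHSP was 1.53, 3.12 and 5.44 CPM in mock DMSO and 1.87, 4.08 and 4.46 CPM in hemin DMSO, which overlapped. It was 153, 142 and 135 CPM in mock nilotinib and 218, 152 and 123 CPM in hemin nilotinib, which also overlapped. Mock DMSO replicate 1 was the lowest and replicate 3 the highest of that group for HBZ, HBA2 and AHSP alike.

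Per kilobase of transcript, HBZ and HBA2 had the highest means in every group, and their group ranges overlapped in each. Their means per kilobase were 106 ± 50.1 and 76.4 ± 28.9 CPM in mock DMSO, 245 ± 35.7 and 299 ± 54.3 in hemin DMSO, 3858 ± 521 and 3441 ± 677 in mock nilotinib and 7541 ± 3625 and 5135 ± 114 in hemin nilotinib (SD, n = 3 each). Within libraries, HBZ was above HBA2 in all 3 of mock DMSO and below it in all 3 of hemin DMSO, and with nilotinib the order varied. In mock DMSO replicate 1, HBQ1 was also above HBA2, at 52.5 against 43.7 CPM per kilobase. By mean, HBA1 came next in all but mock DMSO, where HBQ1 stood above it, at 56.8 ± 4.13 against 37.3 ± 10.1 CPM per kilobase. AHSP was below HBQ1 without nilotinib (5.99 ± 3.50 CPM per kilobase in mock DMSO) and above it with nilotinib, at 255 ± 16.8 against 205 ± 9.62 CPM per kilobase in mock nilotinib (SD, n = 3 each), ranges that did not overlap. HBM and HBZP1 were the lowest in all groups.

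Nilotinib raised all 7 genes without hemin. In mock nilotinib against mock DMSO, 7 of 7 were higher at an adjusted p of 0.05 (quasi-likelihood test of edgeR, Benjamini-Hochberg adjustment over 20821 genes), against 20.7% of all genes tested, and the median log2 fold change was 5.49 beside 0.0039 for all genes. For 7 of 7 the libraries did not overlap and were higher, as for 29.8% of all genes. The sequence shared by HBZ, HBM and HBZP1, and by HBA1 and HBA2, means that the 7 are not fully separate measurements. HBZP1 passed the filter on counts only through the libraries with nilotinib, where it is high. Its call as higher with nilotinib, here and below, is therefore not independent of that filter and adds no support. The log2 fold change was 5.19 for HBZ (SE 0.39), 5.49 for HBA2 (SE 0.29), 5.64 for HBA1 (SE 0.44) and 5.41 for AHSP (SE 0.39). For HBA1 and HBA2 summed it was 5.54 (SE 0.31), and for HBM it was 5.69 (SE 0.45). HBQ1 moved least, by 1.85 (SE 0.17, adjusted p = 2.98e-07), and its 95% interval from 1.52 to 2.18 did not reach the lower bounds of the other members, of which the lowest was 4.42 for HBZ. Summed over libraries, HBZP1 had 409 counts against 11, a depth-scaled ratio of 51.3 with a 95% counting interval from 28.4 to 104. Such intervals, here and below, cover counting error only and leave out the spread between libraries.

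With hemin present, nilotinib again raised all 7. In hemin nilotinib against hemin DMSO, 7 of 7 were higher past the threshold against 32.4% of all genes, with a median log2 fold change of 4.83 beside 0.022 for all genes, and 7 of 7 did not overlap, as for 31.5% of all genes in that direction. AHSP had the highest value, 5.56 (SE 0.39, adjusted p = 8.19e-09), and HBZ had 4.94 (SE 0.39). HBA2 rose by 4.10 (SE 0.27) and HBA1 by 4.73 (SE 0.42), with 4.29 (SE 0.29) for their sum. Leaving out hemin nilotinib replicate 1 brought HBA1 to 3.95. HBM rose by 4.91 (SE 0.43) and HBQ1 by 1.72 (SE 0.17, adjusted p = 2.69e-07). HBZP1 had 134 counts against 4, a ratio of 30.4 with a 95% counting interval from 11.6 to 113.

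In both comparisons the erythroid markers above were higher with nilotinib and the myeloid and lymphoid sums lower, and their part in the change of the globins was not tested. In RNA from whole cultures, a higher share of cells making a transcript and more of it per cell cannot be told apart. Myeloid markers past the threshold with hemin present were 0 higher and 7 lower of 9 tested, where 32.4% of all genes were higher. They included CSF3R, the receptor of granulocyte colony-stimulating factor, at -3.73, LYZ, lysozyme, at -3.37, and ITGAM, an integrin of myeloid cells, at -3.20 on the log2 scale. Of the 4 lymphoid markers tested 2 fell and 0 rose, with CD3D, a chain of the T cell receptor complex, at -6.53. Of the 4 megakaryocyte markers tested 2 rose and 2 fell, with the integrin chains ITGB3 at 2.12 and ITGA2B at -2.09. Of the exonic bases of ITGB3, 51.6% overlap another gene on its strand.

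**Figure D2:**
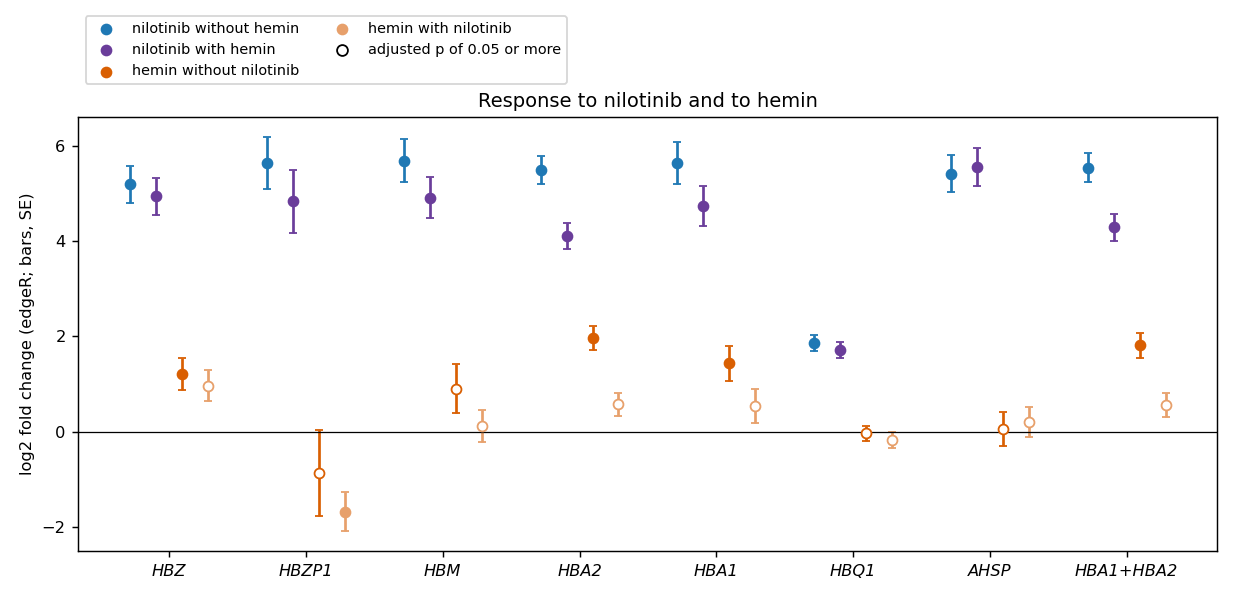
Log2 fold change of each gene, and of HBA1 and HBA2 summed, in the 4 comparisons of a single agent; bars are SE from the edgeR model and open symbols did not pass an adjusted p of 0.05. Nilotinib values lie between 1.72 (HBQ1 with hemin) and 5.69 (HBM without hemin), and hemin values between -1.68 (HBZP1 with nilotinib) and 1.97 (HBA2 without nilotinib).

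Hemin without nilotinib raised HBZ, HBA2 and HBA1 past the threshold. In hemin DMSO against mock DMSO, 3 of 7 were higher and 0 lower at the same threshold, against 25.7% and 27.8% of all genes, and read against that background the count is not a result about the group. HBA2 rose by 1.97 (SE 0.25, adjusted p = 8.81e-06), HBA1 by 1.44 (SE 0.37, adjusted p = 0.0036), their sum by 1.82 (SE 0.26) and HBZ by 1.22 (SE 0.33, adjusted p = 0.0058). The libraries of these 3 genes did not overlap, as for 29.8% of all genes in that direction. HBM (0.90, SE 0.51, adjusted p = 0.143) did not pass, and neither did HBQ1 (-0.04), AHSP (0.05) or HBZP1 (-0.88). The 95% interval of the log2 fold change reached from -0.36 to 0.29 for HBQ1 and from -0.66 to 0.77 for AHSP. For HBM it reached from -0.09 to 1.90. HBM passed without mock DMSO replicate 3, at 1.60, and with all genes with at least 1 count, at 0.83 (adjusted p = 0.0489, edgeR). The library names put the mock libraries at 0 h and the hemin libraries at 24 h, after a pre-treatment of 24 h in the study's methods, so hemin and the added time in culture cannot be told apart.

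AHSP was also set against α-globin, as a percent of HBA1 and HBA2 together, each per kilobase. It was 3.93, 4.27 and 6.82% in mock DMSO and 1.0, 1.52 and 2.02% in hemin DMSO, 2 groups that did not overlap. It was 6.53, 4.06 and 4.36% in mock nilotinib and 3.87, 3.99 and 3.30% in hemin nilotinib, which did not overlap each other either. Mock DMSO and mock nilotinib overlapped, at 5.01 ± 1.58% and 4.98 ± 1.35% (SD, n = 3 each), while hemin nilotinib lay above hemin DMSO. With 3 libraries against 3, an exact two-sided permutation test cannot go below p = 0.1, and the ratios are given as a description.

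Hemin on top of nilotinib lowered HBZP1, and the calls of HBZ and HBA2 depended on the fit. In hemin nilotinib against mock nilotinib, 0 of 7 were higher and 1 lower past the threshold, against 3.52% and 2.28% of all genes, and 3 members (HBZ, HBA2 and HBZP1) had an unadjusted p under 0.05, as did 21.6% of all genes. The libraries of HBA2 did not overlap and were higher, as for 11.7% of all genes, and those of HBQ1 and HBZP1 were lower, as for 11.6%. HBZP1 was the gene called, at -1.68 (SE 0.41, adjusted p = 0.0267), with 134 counts against 409 and a ratio of 0.312 (95% counting interval 0.254 to 0.380). The 95% interval of its log2 fold change, which includes the spread between libraries, was wider and reached from -2.48 to -0.87. HBZP1 was no longer past the threshold without mock nilotinib replicate 2 (-1.44) or 3 (-1.78) or without hemin nilotinib replicate 3 (-1.46). Its overlap with HBM and its shared words with HBZ leave its counts uncertain. HBZ stood at 0.97 (SE 0.33, adjusted p = 0.0965) and HBA2 at 0.58 (SE 0.24, adjusted p = 0.176), and DESeq2 called HBZ beside HBZP1 (0.96, adjusted p = 0.0424). HBZ also passed without hemin nilotinib replicate 3, at 1.25 (adjusted p = 0.0301, edgeR), and stood at 0.53 without replicate 1. Same-numbered libraries of these 2 groups deviated together, and in the 6 libraries alone with the replicate number as a block HBZ (0.87, adjusted p = 0.048) and HBA2 (0.61, adjusted p = 0.0428) passed. With the block in the 12 libraries the members called stayed at 1. The mock nilotinib libraries are named for 0 h, and whether nilotinib was kept during the 24 h of hemin is not given in the sources used here, so hemin cannot be told apart from time in culture or with nilotinib. HBA1 (0.53), AHSP (0.20), HBM (0.12) and HBQ1 (-0.17) did not pass in either, and without hemin nilotinib replicate 1 HBA1 was at -0.26.

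The effect of nilotinib with hemin was compared with its effect without hemin by the interaction term, to which the same limit on the time with nilotinib applies. HBA2 was the only single gene called of the 7, with a smaller nilotinib effect under hemin, by -1.39 on the log2 scale (SE 0.34, adjusted p = 0.0067), against 13.0% of all genes called in that direction and 17.1% in the other. Read against that background, 1 call of 7 is not a result about the group. For HBA1 and HBA2 summed the difference was -1.25 (SE 0.36, adjusted p = 0.0151). Without mock nilotinib replicate 2 the sum was at -1.09 and not past the threshold (adjusted p = 0.0513). HBA1 alone was at -0.91 (SE 0.51, adjusted p = 0.192), and without hemin nilotinib replicate 1 it was at -1.68 and past the threshold. HBZ (-0.25), HBM (-0.78), HBQ1 (-0.13), HBZP1 (-0.80) and AHSP (0.14) did not pass, with 95% intervals from -1.16 to 0.66 for HBZ and from -0.80 to 1.09 for AHSP. On the level scale, the 2 agents together gave HBA2 a mean of 4246 CPM, beside 2846 ± 560 CPM (SD, n = 3) with nilotinib alone and 248 ± 44.9 CPM (SD, n = 3) with hemin alone.

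Of the single agents, nilotinib gave the higher level of every member. In mock nilotinib against hemin DMSO, 7 of 7 were higher past the threshold, against 32.5% of all genes, and 7 of 7 did not overlap, as for 35.0% of all genes in that direction. They had log2 fold changes of 3.97 for HBZ, 3.52 for HBA2, 4.20 for HBA1, 4.79 for HBM, 1.89 for HBQ1 and 5.36 for AHSP. HBZP1 had 409 counts against 4, a ratio of 97.5 with a 95% counting interval from 37.8 to 360. The SE was 0.37 for HBZ, 0.27 for HBA2 and 0.39 for AHSP. This comparison shares its libraries with those above. It sets libraries named for 0 h against libraries named for 24 h, so the agent and the time in culture cannot be told apart.

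The make-up of the α-like pool changed, with the share of HBQ1 apart in all groups and those of HBA2, HBA1 and HBZ apart in some. Of the summed level per kilobase of the 6 α-like genes, HBQ1 was 22.0 ± 6.62% in mock DMSO, 7.78 ± 0.935% in hemin DMSO, 2.21 ± 0.196% in mock nilotinib and 1.25 ± 0.319% in hemin nilotinib (SD, n = 3 each), and no 2 groups overlapped. The share of HBZ was 36.9 ± 6.06, 35.1 ± 2.04, 41.3 ± 5.36 and 47.0 ± 7.50% in the same order, and only the ranges of hemin DMSO and hemin nilotinib did not overlap. HBA2 held 27.2 ± 2.67% in mock DMSO, 42.6 ± 0.514% in hemin DMSO and 36.5 ± 4.16% in mock nilotinib, and no 2 of these groups overlapped. In hemin nilotinib it held 23.5 to 47.6%, with the lowest value in replicate 1. HBA1 held 13.7 ± 1.42% in mock DMSO, 14.5 ± 2.03% in hemin DMSO and 19.7 ± 1.54% in mock nilotinib (SD, n = 3 each). Its mock nilotinib libraries lay above all libraries without nilotinib, while hemin nilotinib was spread over 12.3 to 22.8%. HBM and HBZP1 together stayed under 1% throughout. The ratio of HBZ to HBA1 and HBA2 together, per kilobase, was 0.616 ± 0.054 in hemin DMSO, under the 0.804 to 1.10 of mock DMSO, and spread over 0.643 to 1.14 in hemin nilotinib. All 7 genes took 0.0144 to 0.0283% of the counts of a library in mock DMSO, 0.0409 to 0.054% in hemin DMSO, 0.719 to 0.894% in mock nilotinib and 0.934 to 1.71% in hemin nilotinib.

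Of the β-like globins, the partner chains, HBG1, HBG2, HBD and HBBP1 rose with nilotinib. Under hemin 4 of 6 rose and 0 fell, with a median of 1.73 on the log2 scale, and 4 of 6 rose without hemin, with a median of 1.52. Of all genes, 32.4% rose with nilotinib under hemin and 20.7% without hemin. HBE1, the embryonic ε chain, and HBB, the adult β chain, did not pass in either comparison. HBG1, a fetal γ chain, rose by 2.40, HBBP1, a pseudogene, by 2.03 and HBD, the δ chain, by 1.97 under hemin, and without it HBG1 rose by 3.07. HBE1 overlaps another gene on its strand in 90.0% of its exonic bases, HBG2 in 57.3% and HBG1 in 13.1%, and HBG1 shares sequence with HBG2, so the counts behind these values and the ratios that follow are uncertain. Hemin without nilotinib raised 4 of the 6, against 25.7% of all genes. Per kilobase of the deposited gene lengths, the sum of HBZ, HBA2 and HBA1 was 1.39, 1.84 and 1.45 times that of HBE1, HBG2, HBG1, HBD and HBB in mock DMSO and 2.02, 2.71 and 2.89 times in hemin DMSO. It was 11.6, 7.19 and 8.26 times in mock nilotinib and 17.4, 13.0 and 7.65 times in hemin nilotinib. HBG1 held 85.4 to 96.2% of the β-like counts, so its deposited length sets the scale of these ratios. Every library with nilotinib had a higher ratio than every library without it.

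**Figure D3:**
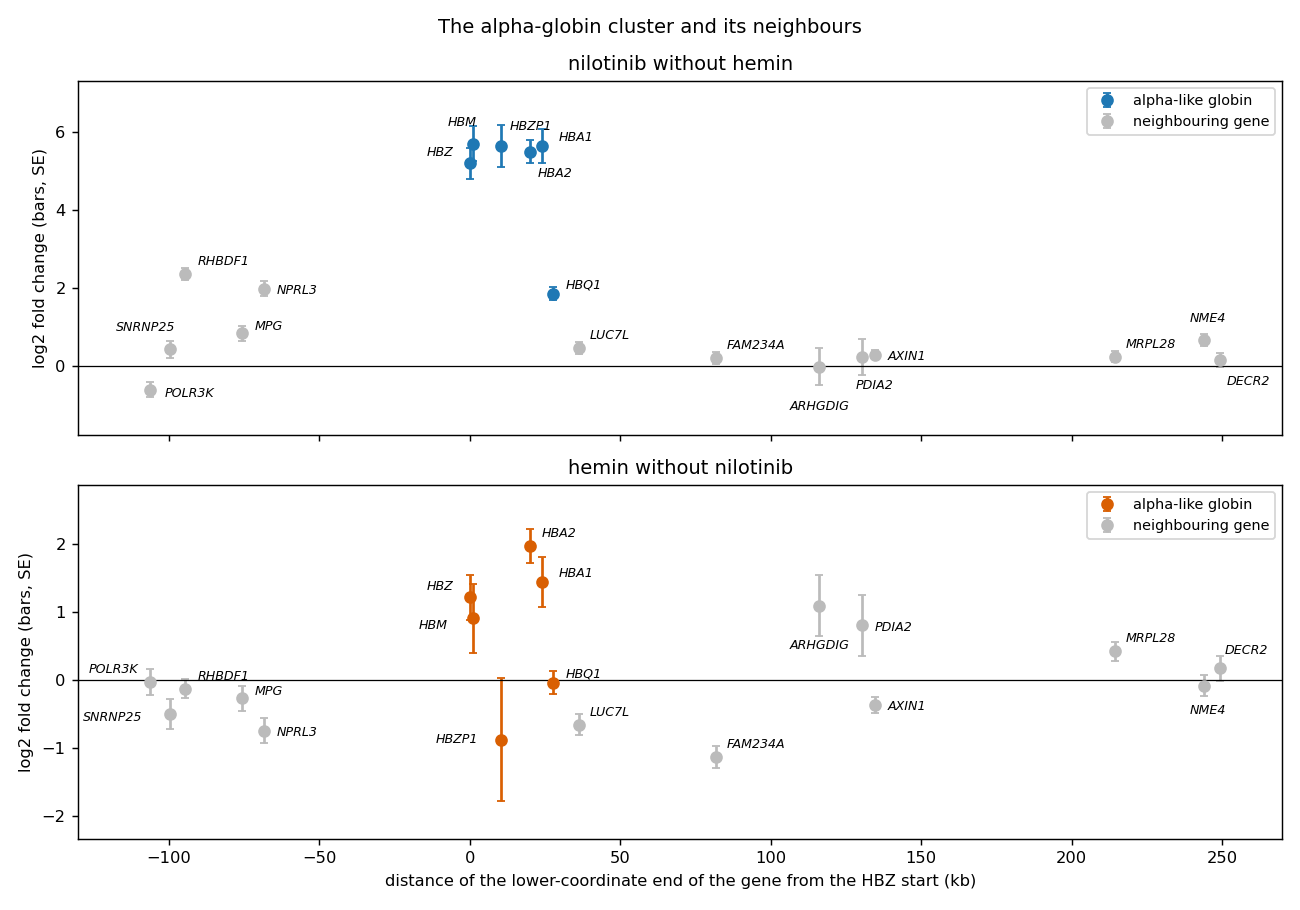
Log2 fold change with SE against the distance of the lower-coordinate end of each gene from the HBZ start, in kilobases, for nilotinib without hemin (top) and hemin without nilotinib (bottom). With nilotinib the α-like genes other than HBQ1 lie above 5 and the highest neighbors, RHBDF1 and NPRL3, at 2.36 and 1.98; with hemin HBA2, HBA1 and HBZ lie between 1.22 and 1.97.

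The response was also set beside that of the 15 neighboring genes in the list, of which 13 were tested. Nilotinib without hemin raised 5 and lowered 1 of them, with a median of 0.30, where it raised 20.7% of all genes. RHBDF1, an inactive rhomboid protease that lies farther from the cluster than NPRL3, rose by 2.36 (SE 0.15), and NPRL3, whose introns hold the α-globin enhancer, by 1.98 (SE 0.19). MPG, a DNA repair glycosylase between them, rose by 0.84, NME4 by 0.67 and LUC7L, a splicing factor just beyond HBQ1, by 0.47, while POLR3K, an RNA polymerase III subunit, fell by 0.60. SNRNP25 (0.44), AXIN1 (0.30), PDIA2 (0.24), MRPL28 (0.24), FAM234A (0.20), DECR2 (0.15) and ARHGDIG (-0.01) did not pass. With hemin present nilotinib raised 8 and lowered 2, with a median of 0.58, where it raised 32.4% of all genes. NPRL3 rose by 2.29, RHBDF1 by 2.25, LUC7L by 1.68, NME4 by 0.97, SNRNP25 by 0.89, FAM234A by 0.89, MPG by 0.58 and AXIN1 by 0.43. ARHGDIG (-2.51) and PDIA2 (-2.23) fell, and both were at or under 1.5 CPM in all groups on average.

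Hemin without nilotinib lowered 4 and raised 2 of the 13 neighbors, with a median of -0.13. Of all genes, 27.8% were lower and 25.7% higher, so these counts are not a result about the neighbors. FAM234A fell by 1.13, NPRL3 by 0.74, LUC7L by 0.65 and AXIN1 by 0.36, while ARHGDIG (1.09) and MRPL28 (0.42) rose. With hemin on top of nilotinib only LUC7L passed (0.56), where 3.52% of all genes were higher. Of the exonic bases, 27.3% of MPG, 13.8% of NPRL3 and 23.9% of ARHGDIG overlap a gene on the opposite strand, and 37.9% of FAM234A, 15.6% of NME4 and 14.1% of DECR2 overlap one on their own strand. The sources used here do not state whether reads were counted by strand. The pseudogene HBAP1, which lies in the cluster, and RGS11 had too few counts for the test.

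Transcription factors and other regulators of the α-globin genes mostly rose with nilotinib and fell with hemin where nilotinib was absent. Under hemin, nilotinib raised 10 and lowered 1 of the 16 tested, with a median of 1.33, against 32.4% of all genes raised. Without hemin it raised 10 and lowered 2, with a median of 0.73, against 20.7% of all genes raised. KLF1, an erythroid zinc finger factor, rose by 4.71 and 1.37, NFE2, which binds the globin enhancers, by 3.48 and 1.03, and LMO2, a bridging protein of the GATA1 complex, by 3.41 and 1.81 in these comparisons. Hemin without nilotinib lowered 11 and raised 4 of the 16, with a median of -0.73, against 27.8% and 25.7% of all genes. KLF1 fell by 3.57, from 284 to 24.0 CPM, NFE2 fell by 2.84 and LMO2 fell by 1.60, in the same libraries in which HBA2 rose by 1.97 and HBZ by 1.22. With hemin on top of nilotinib 1 of the 16 passed, as higher, where 3.52% of all genes were higher. BCL11A, a silencer of the fetal γ genes, was not tested, with at most 0.04 CPM on average in a group.

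The enzymes of heme biosynthesis, whose product fills each globin chain, rose with nilotinib in 8 of 8 cases both with hemin (median 3.25) and without it (median 2.18). Of all genes, 32.4% and 20.7% rose in these comparisons. ALAS2, which makes the first precursor in erythroid cells, rose by 5.52 and PPOX, a later enzyme of the pathway, by 3.58 under hemin. PPOX overlaps a gene on the opposite strand in 24.3% of its exonic bases. Hemin without nilotinib lowered 6 of the 8 and raised 0, with a median of -1.19, against 27.8% and 25.7% of all genes. Erythroid surface and membrane genes followed nilotinib in 8 of 8 cases with hemin and 8 of 8 without it, led under hemin by SLC4A1 at 9.78, EPB42 at 4.59 and ERMAP at 3.84. Hemin without nilotinib raised 2 and lowered 4 of these 8, against 25.7% and 27.8% of all genes. All of these comparisons use the libraries of the globin comparisons and are given side by side with them.

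Finally, the genes whose log2 levels were most like those of HBZ, HBA2 and AHSP over the 12 libraries were found among genes with a mean of at least 100 counts. For HBZ these were PAQR9 (Pearson's r = 0.992, Spearman's rho = 0.937), HBA1 (r = 0.992, rho = 0.930) and ELL2 (r = 0.989, rho = 0.951). For HBA2 they were SNX22 (r = 0.989, rho = 0.951), PAQR9 (r = 0.986, rho = 0.846) and ELL2 (r = 0.986, rho = 0.916). For AHSP they included ARHGAP23 (r = 0.993, rho = 0.958) and SLC10A3 (r = 0.993, rho = 0.909). The 6 libraries with nilotinib stand apart from the 6 without it for all of these genes, so r describes mainly that separation and is given without a test. Among the members, r with HBZ was 0.986 for HBM, 0.985 for HBA2, 0.978 for AHSP, 0.945 for HBQ1 and 0.873 for HBZP1.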

How the data were processed

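RNA of K562 cells was sequenced as 150-base paired-end reads in 12 libraries. The authors deposited raw counts of reads per gene, made by their sequencing service, and these were tested. The deposited gene length (another column of the same table, in bases) was used for levels per kilobase. The submitters' processing notes name GRCh38.p12, DESeq2 and DESeq, and the aligner and counter are not given in the sources used here. The FPKM tables, made from the same counts, were not used here. Positions, exons and transcripts came from GENCODE 29, and the promoter from RefSeq.

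Counts were fitted in R 4.3.3 with edgeR 4.0.16 (filterByExpr with minimum count 10 and minimum total count 15, TMM, quasi-likelihood, 1 mean per group over 12 libraries, Benjamini-Hochberg adjustment over the 20821 genes tested, two-sided, threshold 0.05). Counting intervals are exact conditional intervals at 95% on counts summed over the libraries of a group, and leave out the spread between replicates. Alternatives were DESeq2 1.42.0, 3 other scalings, 2 other filters, fits limited to the compared libraries, fits blocked by replicate number, and leave-one-library-out fits. Scripts were tested on simulated data. Figures were drawn with matplotlib 3.10.9.

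The labels number the replicates, and the study's methods call them biological replicates. Within groups, log2 CPM correlated at 0.969 to 0.992 across genes, and all pairs of replicates differed by more than sampling noise. Same-numbered libraries deviated together, with all 3 correlations over 0.1, only between mock nilotinib and hemin nilotinib (0.263, 0.199 and 0.254). The main test did not pair them, and the replicate number entered as a block only in alternative fits.

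The members, lists and tests were chosen with earlier results of these data known. Named were all 7 members, all tested neighbors, of each other list the 3 genes with the largest change among those past the threshold for nilotinib with hemin, genes whose absence matters, and the 3 genes most like HBZ, HBA2 and AHSP. Of the genes this rule names, 4 are not reported here.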

Additional observations from a re-analysis of the deposited data

Results flagged for a closer look

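The effect of nilotinib on HBA2 differed with and without hemin by the test of the difference itself, by -1.39 on the log2 scale (SE 0.34, adjusted p = 0.0067, by edgeR), with effects of 4.10 and 5.49. For HBA1 and HBA2 summed the difference was -1.25 (SE 0.36, adjusted p = 0.0151), with effects of 4.29 and 5.54. All 3 hemin DMSO libraries lay above all 3 mock DMSO libraries for both. Groups of 3 libraries were too small to be searched for single outlying libraries.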

How the results depend on the processing

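For nilotinib with hemin, nilotinib without hemin and nilotinib against hemin alone, the 498 values of members and of HBA1 and HBA2 summed under the alternatives all kept their direction and passed the threshold, with adjusted p of at most 0.000226 (edgeR or DESeq2). Where at least 10 counts were required in every library, HBZP1 and HBM were not tested, which left 5 members called. Scaling by library totals alone moved the median of all genes by more than 0.1, to 0.199 for nilotinib with hemin, -0.286 for hemin without nilotinib, 0.272 for the interaction and 0.198 for nilotinib against hemin alone, and upper-quartile factors moved it to 0.113 for nilotinib without hemin, 0.073 for hemin without nilotinib and -0.057 for the interaction.

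Hemin with nilotinib depended on the settings. The 1208 genes called became 1944 with DESeq2, 1987 with all genes with at least 1 count, 183 in the 6 libraries alone, and 213 to 2793 with a library left out (782 without mock DMSO replicate 2, 213 and 234 without mock nilotinib replicates 2 and 3, 2793 and 286 without hemin nilotinib replicates 1 and 2). The members called, 1 at first, were 2 with DESeq2, 4 with all genes with at least 1 count, 0 with at least 10 counts in every library, 0 in the 6 libraries alone, 3 in those with the replicate block, and 0 to 1 with a library left out. HBA1 and HBA2 summed passed there with all genes with at least 1 count, at 0.56 (adjusted p = 0.0155, edgeR). The replicate block over 12 libraries gave 1587 genes and changed no call of a member. For the interaction, members called were 2 with all genes with at least 1 count, where HBA1 joined HBA2, and 1 to 2 with a library left out, and HBA1 and HBA2 summed ranged from -1.46 to -0.91.

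Small changes that were not past the threshold turned sign. For hemin without nilotinib, HBQ1 was 0.0045 with DESeq2, 0.0045 with RLE factors, 0.084 with upper-quartile factors and 0.0015 in the 6 libraries alone, and AHSP was -0.17 without composition factors and -0.020 with all genes with at least 1 count. For the interaction, AHSP was -0.0029 with upper-quartile factors and HBQ1 0.076 without composition factors. With a library left out, AHSP ranged from -0.37 to 0.56 and HBQ1 from -0.24 to 0.17 for hemin without nilotinib. For hemin with nilotinib, HBM ranged from -0.21 to 0.31, HBA1 from -0.26 to 0.85 and AHSP from -0.062 to 0.36. For the interaction, HBZ ranged from -0.66 to 0.14, AHSP from -0.35 to 0.58 and HBQ1 from -0.34 to 0.064. The cause was not tested. The genes of the lists were not refitted under the alternatives. Depth limits HBZP1 most, with 1 to 7 counts in each library without nilotinib.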
